A study of Homo sapiens with 24 samples.

Results

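The last step of ΔNp63 induction, from day 3 to day 6, was described in 6 of the 24 libraries of the series: the 3 day 3 and the 3 day 6 libraries of the ΔNp63 line. They were chosen by their labels, which give the line and the days of induction. All are of TYUC-1, a cancer cell line labelled as neuroendocrine esophageal carcinoma and kept in suspension, of genotype i-DNp63, the label for inducible ΔNp63. The day 3 cells had 3 days of DMSO, the vehicle, and 3 days of doxycycline, the inducing drug, at 1 µg/ml; the day 6 cells had 6 days of doxycycline and 0 days of DMSO. A treatment label names EPZ-6438, which blocks the histone methyltransferase EZH2, for 3 and 6 days in these groups, while titles and induction labels name only p63. Days of doxycycline, days of DMSO and any days of the inhibitor therefore cannot be told apart. The same step in the TAp63 line of the same cells (i-TAp63, 3 against 3 libraries, same labels otherwise) and days 0 and 1 of the ΔNp63 line (6 and 5 days of DMSO) were used for comparison. The series calls its replicates biological without saying how cultures were separated, and p-values here reflect only how these libraries differ among themselves.

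TP63 encodes p63, a transcription factor of the p53 family, and an internal promoter gives the form ΔNp63, which lacks the N-terminal transactivation domain of TAp63. ΔNp63 is the main form in the basal cells of stratified epithelia such as the epidermis and the esophagus, where it is known for keeping progenitors and for driving basal keratins, adhesion molecules and matrix receptors. Tuft cells are by contrast marked by POU2F3, and neuroendocrine cells by INSM1 and CHGA. The step shows which genes differed in level between 3 and 6 days of induction.

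The 6 libraries held between 6375963 (day 6 replicate 3) and 17399162 counts (day 3 replicate 2), and levels are given as CPM, counts scaled to TMM-adjusted library totals. Day 1 replicate 3 of the same line held 1530847 counts and was left out of the fit; it belongs to neither group compared. The induced gene, TP63, was not called between the 2 days: it had 1025, 769 and 801 CPM at day 3 and 1033, 835 and 908 CPM at day 6, with overlapping groups. The TP63 log2 change was 0.10 ± 0.14 (edgeR adjusted p = 1). The counts sum its isoforms. The tuft cell factor POU2F3 was present in all 6 libraries, with 123 to 148 CPM at day 3 and 145 to 169.8 CPM at day 6. The neuroendocrine markers INSM1 and CHGA had only 15 and 19 counts over the 3 day 3 libraries and 14 and 8 over the day 6 libraries. KRT14, the partner of KRT5 in basal cells, had 1 count at day 3 and 0 at day 6. Summed erythroid and globin genes followed the replicate number rather than the day, at 64.8, 16.2 and 10.9 CPM at day 3 and 58.2, 9.99 and 9.80 CPM at day 6 for replicates 1, 2 and 3.

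Between day 3 and day 6 genes such as KRT5, FN1, TGFBI and FXYD3 rose and genes such as ALK and HTR3E fell. Without a term for the replicate number edgeR called 14 of the 15783 genes tested at an adjusted p under 0.05 (0.0887% of them): 10 higher (0.0634%) and 4 lower (0.0253%). At an unadjusted p under 0.05, 401 genes were higher and 612 lower. Same-numbered day 3 and day 6 libraries deviated from their group means together, so the replicate numbers were treated as pairs in a second fit with a replicate block. With the block edgeR called 239 genes (1.51%), 101 higher (0.64%) and 138 lower (0.874%), among them all 14. Each of the 239 moved the same way in all 3 pairs, against 21.7% higher and 18% lower in all pairs among the genes tested, which the block test itself draws on. Of the 239, 200 had no overlap between the groups, as had 11.9% of all genes tested (5.12% higher and 6.77% lower). The median log2 change was 0.43 among the higher and -0.69 among the lower calls, beside 0.02 over all genes, and 18 rose and 35 fell by at least 2-fold. In bulk RNA, fewer cells of a type and less RNA per cell cannot be told apart.

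The counts depended on single libraries. Without the block, 4 genes were called higher when day 3 replicate 1, 2 or 3 was left out, and 2 were called lower without day 6 replicate 2 or day 3 replicate 3. With the block, 32 were higher without day 3 replicate 2, 37 without day 6 replicate 2, 33 without day 3 replicate 3 and 30 without day 6 replicate 3. With the block, 81 were lower without day 3 replicate 1, 40 without day 3 replicate 2, 23 without day 6 replicate 2, 66 without day 3 replicate 3 and 38 without day 6 replicate 3. FN1, KRT5, TGFBI, FXYD3, HTR3E and ALK kept their call in the fit without the block when any 1 of the 6 libraries was left out, and all 14 kept it in each such fit with the block. The others lost it in the fit without the block. ADRA2A, SLC6A5, BMP7 and GSTA1 lost it without day 3 replicate 1, 2 or 3 or day 6 replicate 1. LIPF lost it without any day 3 library or day 6 replicate 2, and AMOT without any library but day 6 replicate 1. OPCML lost it without day 6 replicate 1 or 2 or day 3 replicate 2 or 3, APOL4 without day 6 replicate 2 or 3 or day 3 replicate 3, and SLC6A5 also without day 6 replicate 2 or 3. With day 1 replicate 3 in the fit, 1 gene was called higher (FXYD3) and 1 lower (HTR3E), and with the block 8 and 4.

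The basal keratin rose in the last step. KRT5, a type II keratin that marks basal cells (hg38, chromosome 12, 52514575 to 52520394, minus strand), had 7.94, 7.70 and 6.95 CPM at day 3 and 26.3, 19.7 and 21.3 CPM at day 6. Every day 6 library was more than 2-fold above every day 3 library. KRT5 had a log2 change of 1.58 ± 0.23 (SE; edgeR adjusted p = 0.00240, and 7.17e-07 with the block). TRIM29, a TRIM family protein of basal squamous cells, had 94.8, 79.99 and 79.995 CPM at day 3 and 129, 122 and 116 CPM at day 6. Its log2 change was 0.53 ± 0.14 (edgeR adjusted p = 0.0454 with the block and 0.462 without it). Its groups did not overlap, but it lost the call without any 1 of the 6 libraries. These were the 2 called with the block among 23 tested basal squamous genes, 0 were lower, and the list's median log2 change was 0.06 beside 0.01 over all genes without the block. ITGA6, an integrin of hemidesmosomes, was not called and had 98.4, 113 and 107 CPM at day 3 and 105, 112 and 115 CPM at day 6. The calcium-binding protein gene S100A2 had 12.6, 16.4 and 16.6 CPM at day 3 and 10.9, 14.9 and 16.6 CPM at day 6. The basal keratin gene KRT15 had 34.2, 28.8 and 23.2 CPM at day 3 and 39.7, 29.7 and 28.4 CPM at day 6. In all 3 the groups overlapped.

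Among 32 tested squamous differentiation genes the block called 3 higher and 1 lower, and the list's median was 0.01 on the log2 scale; without the block none was called. KRT4, a keratin of the suprabasal esophagus, had 1.47, 1.79 and 1.75 CPM at day 3 and 6.94, 6.76 and 3.95 CPM at day 6. All 3 day 6 libraries stood above day 3, with replicate 3 the lowest of them. The log2 change was 1.82 ± 0.27 (edgeR adjusted p = 2.27e-04 with the block, 0.0946 without it). CRNN, cornulin, a late differentiation protein of the squamous esophagus, had 4.22, 3.96 and 4.45 CPM at day 3 and 12.9, 10.1 and 9.95 CPM at day 6, again without overlap. edgeR gave CRNN a log2 change of 1.39 ± 0.22 (adjusted p = 7.15e-04 with the block, 0.1202 without it). KRT80, a keratin that appears with differentiation, had 48.9, 44.99 and 42.5 CPM at day 3 and 68.3, 65.5 and 60.04 CPM at day 6. This gave a log2 change of 0.51 ± 0.11 (edgeR adjusted p = 0.0196 with the block and 0.407 without it). KRT80 kept the call only without day 6 replicate 1. EMP1, an epithelial membrane protein, went the other way, with 36.6, 47.1 and 49.5 CPM at day 3 and 18.2, 23.6 and 26.2 CPM at day 6 and no overlap. In edgeR EMP1 changed by -0.99 ± 0.14 in log2 (adjusted p = 1.36e-04 with the block, 0.146 without it). KRT4, CRNN and EMP1 kept the call without each of the 6 libraries in turn. KRT13, the partner of KRT4, had 80.8, 55.4 and 54.8 CPM at day 3 and 109.8, 72.9 and 65.4 CPM at day 6, with overlapping groups. For KRT13 the log2 change was 0.37 ± 0.11 (edgeR adjusted p = 0.0755 with the block, 0.901 without it). PADI3, a deiminase of epidermis and hair, had 99.3, 90.4 and 90.9 CPM at day 3 and 85.9, 82.8 and 96.7 CPM at day 6 and was not called. SPRR3, a cornified envelope precursor, had 3.67, 6.36 and 6.77 CPM at day 3 and 4.75, 10.4 and 9.01 CPM at day 6 and was not called (edgeR adjusted p = 0.0788 with the block).

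**Figure D1:**
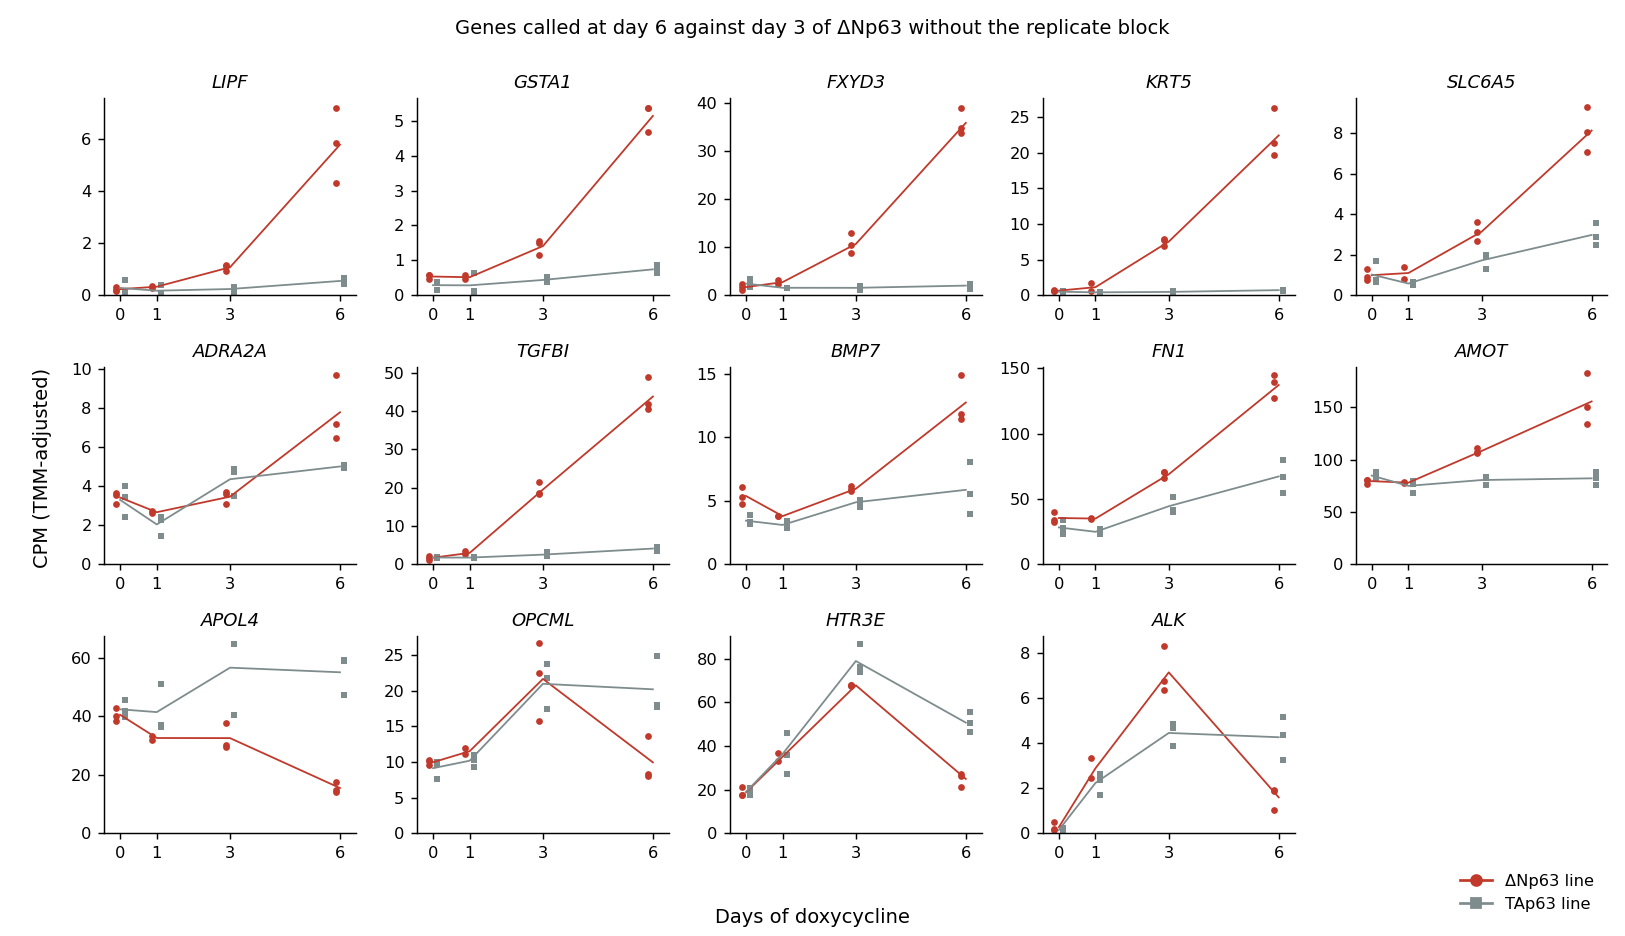
Levels in CPM (linear vertical axes from 0) against days of doxycycline for the 14 genes called between day 3 and day 6 of ΔNp63 without the replicate block; points are libraries, lines join group means, circles are the ΔNp63 line and squares the TAp63 line. KRT5, FXYD3 and TGFBI climbed at day 6 above all day 3 libraries of the ΔNp63 line, and ALK and HTR3E peaked at day 3.

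The matrix genes FN1 and TGFBI rose. FN1, fibronectin (chromosome 2, 215360440 to 215436070), had 65.7, 70.6 and 70.2 CPM at day 3 and 145, 127 and 139.7 CPM at day 6. The groups did not overlap and the spread within each was small beside the gap. The log2 change was 0.99 ± 0.14 (SE; edgeR adjusted p = 0.00240, and 8.00e-07 with the block). TGFBI, a matrix protein that TGF-β induces (chromosome 5, 136028988 to 136063818), had 18.6, 21.5 and 18.4 CPM at day 3 and 41.7, 40.6 and 48.98 CPM at day 6, without overlap. In edgeR the log2 change was 1.16 ± 0.16 (adjusted p = 0.00158, and 2.12e-07 with the block). LOX, lysyl oxidase, which crosslinks collagen, had 5.68, 5.81 and 4.20 CPM at day 3 and 11.7, 9.71 and 6.95 CPM at day 6. edgeR put the log2 change of LOX at 0.88 ± 0.17 (adjusted p = 0.00744 with the block, 0.215 without it). LOX lost the call without day 6 replicate 1 or day 3 replicate 3. These were the calls among 23 tested matrix and mesenchymal transition genes (3 higher and 0 lower with the block, 2 and 0 without it), whose median log2 change was 0.04. Of 24 hemidesmosome and basement membrane genes LAMB1, a laminin chain, was the 1 called, with 151, 163 and 162 CPM at day 3 and 202, 207 and 203 CPM at day 6. Its log2 change was 0.36 ± 0.09 (edgeR adjusted p = 0.0338 with the block and 0.380 without it). LAMB1 kept the call only without day 6 replicate 1. The fibroblast markers summed to 53.8, 44.7 and 44.1 CPM at day 3 and 51.8, 41.5 and 39.97 CPM at day 6, with DCN and LUM at 2 and 0 counts over the day 3 libraries and 1 and 1 over the day 6 libraries. Of 8 desmosome genes PKP1, plakophilin 1, was called with the block, with 58.2, 56.2 and 58.9 CPM at day 3 and 77.4, 72.97 and 81.2 CPM at day 6. edgeR gave PKP1 a log2 change of 0.41 ± 0.09 (adjusted p = 0.0126 with the block, 0.198 without it). PKP1 lost the call without day 3 replicate 2 or day 6 replicate 3. Of the 8, 6 were higher in all 3 pairs, as were 21.7% of all genes tested.

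A ligand of the TGF-β family and ligands of other pathways were among the rises. BMP7, a bone morphogenetic protein (chromosome 20, 57168753 to 57266641), had 6.17, 5.75 and 5.89 CPM at day 3 and 14.9, 11.4 and 11.8 CPM at day 6. All day 6 libraries were above all day 3 libraries, and the level of the antisense gene BMP7-AS1 cannot be separated from it. BMP7 had a log2 change of 1.10 ± 0.18 (SE; edgeR adjusted p = 0.0115, and 3.16e-05 with the block). With LTBP1, which binds latent TGF-β, and ID2, a direct BMP target, it made 3 calls higher and 0 lower with the block among 24 tested TGF-β and SMAD genes (median log2 change 0.06). LTBP1 had 104, 92.6 and 98.04 CPM at day 3 and 129, 116 and 140.5 CPM at day 6. This gave a log2 change of 0.38 ± 0.07 (edgeR adjusted p = 0.00533 with the block and 0.430 without it). LTBP1 lost the call without day 6 replicate 3. ID2 had 117, 101 and 92.9 CPM at day 3 and 134, 129 and 112 CPM at day 6, with overlapping groups, and it lost the call without any 1 of the 6 libraries. WNT7B, a Wnt ligand of epithelia, was the 1 call among 30 Wnt pathway genes, with 38.9, 40.6 and 36.96 CPM at day 3 and 51.1, 51.3 and 57.98 CPM at day 6. In edgeR WNT7B changed by 0.45 ± 0.11 in log2 (adjusted p = 0.0322 with the block, 0.346 without it). WNT7B kept the call only without day 6 replicate 1. CXCL14, an epithelial chemokine, had 3.06, 4.80 and 4.07 CPM at day 3 and 5.92, 9.63 and 11.5 CPM at day 6. For CXCL14 the log2 change was 1.14 ± 0.23 (edgeR adjusted p = 0.00948 with the block, 0.394 without it). CXCL14 lost the call without day 6 replicate 2, day 3 replicate 3 or day 6 replicate 3. The TNF receptor family member TNFRSF19 had 0.489, 0.781 and 0.501 CPM at day 3 and 1.48, 1.73 and 1.58 CPM at day 6. edgeR put the log2 change of TNFRSF19 at 1.39 ± 0.31 (adjusted p = 0.0191 with the block, 0.189 without it). This rests on 8, 14 and 8 counts at day 3 and 19, 24 and 10 counts at day 6. TNFRSF19 kept the call only without day 6 replicate 1.

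Enzymes and membrane proteins were also among the rises, and LIPF and GSTA1 had the largest log2 changes of the 10 genes called higher without the block. LIPF, gastric lipase, a gene of the stomach's chief cells (chromosome 10, 88664442 to 88678813), had 0.917, 1.17 and 1.13 CPM at day 3 and 4.29, 7.19 and 5.85 CPM at day 6. The level was low at both times, but the lowest day 6 library was above the highest day 3 library. The log2 change was 2.42 ± 0.38 (SE; edgeR adjusted p = 0.00628, and 2.44e-06 with the block). GSTA1, a glutathione transferase (chromosome 6, 52791371 to 52803816) with close paralogs that can share its reads, had 1.16, 1.56 and 1.503 CPM at day 3 and 5.38, 4.67 and 5.37 CPM at day 6, without overlap. In edgeR the log2 change was 1.86 ± 0.30 (adjusted p = 0.0105, and 3.10e-05 with the block). FXYD3, a regulatory subunit of the sodium pump (chromosome 19, 35115823 to 35124324) that holds the microRNA gene MIR6887, had 10.4, 12.9 and 8.77 CPM at day 3 and 33.7, 39.1 and 34.9 CPM at day 6. Its groups stood clear of each other. FXYD3 had a log2 change of 1.75 ± 0.22 (SE; edgeR adjusted p = 0.00130, and 1.56e-08 with the block). SLC6A5, a glycine transporter (chromosome 11, 20599608 to 20659285), had 3.60, 2.68 and 3.13 CPM at day 3 and 9.27, 7.05 and 8.06 CPM at day 6, without overlap. The log2 change was 1.37 ± 0.25 (SE; edgeR adjusted p = 0.0325, and 1.47e-04 with the block). ADRA2A, the alpha-2A adrenergic receptor (chromosome 10, 111077029 to 111080904), had 3.60, 3.07 and 3.70 CPM at day 3 and 9.66, 7.19 and 6.48 CPM at day 6; replicate 1 was the highest day 6 library. In edgeR the log2 change was 1.18 ± 0.20 (adjusted p = 0.0115, and 1.55e-04 with the block). AMOT, angiomotin, a scaffold protein of the Hippo pathway (chromosome X, 112774503 to 112840831), had 107, 111 and 106 CPM at day 3 and 134, 150.3 and 182 CPM at day 6; this was the smallest of the 14 changes. AMOT had a log2 change of 0.52 ± 0.10 (SE; edgeR adjusted p = 0.0441, and 8.08e-04 with the block).

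Further genes were called higher only with the block, among them B2M, KRT7 and CACNA1H. B2M, beta-2 microglobulin of the MHC class I complex, had 657, 811 and 761 CPM at day 3 and 949, 1199 and 1076 CPM at day 6, without overlap. Its change of 0.53 ± 0.07 on the log2 scale had an edgeR adjusted p of 8.41e-05 with the block and of 0.0524 without it. No other of the 22 tested MHC class I presentation genes was called, and the list's median was 0.03. KRT7, a simple epithelial keratin, had 585, 426 and 349 CPM at day 3 and 754, 546 and 486 CPM at day 6: the groups overlapped, but each pair rose. Its log2 change was 0.40 ± 0.08 (edgeR adjusted p = 0.00533 with the block and 0.898 without it). GRHL1, a grainyhead-like factor of epithelia, had 37.8, 47.3 and 49.1 CPM at day 3 and 61.95, 65.9 and 57.2 CPM at day 6. edgeR gave GRHL1 a log2 change of 0.47 ± 0.09 (adjusted p = 0.00503 with the block, 0.0946 without it). GRHL1 lost the call without day 6 replicate 2. KRT7 and GRHL1 were the calls among 33 simple epithelial genes (median log2 change 0.06). The calcium channel gene CACNA1H had 11.2, 9.60 and 9.33 CPM at day 3 and 24.9, 16.6 and 14.5 CPM at day 6. This gave a log2 change of 0.88 ± 0.15 (edgeR adjusted p = 0.00194 with the block and 0.298 without it). B2M, KRT7 and CACNA1H kept the call without each of the 6 libraries in turn. SIPA1L2 had 4.89, 3.57 and 3.38 CPM at day 3 and 7.79, 6.90 and 7.43 CPM at day 6 and no overlap. In edgeR SIPA1L2 changed by 0.88 ± 0.20 in log2 (adjusted p = 0.0245 with the block, 0.360 without it). SIPA1L2 kept the call only without day 3 replicate 1 or day 6 replicate 1. STUM had 4.58, 2.96 and 3.63 CPM at day 3 and 8.18, 7.12 and 5.53 CPM at day 6. For STUM the log2 change was 0.91 ± 0.17 (edgeR adjusted p = 0.00572 with the block, 0.231 without it). STUM lost the call without day 3 replicate 2 or day 6 replicate 2. FOXA1, a pioneer factor of endoderm, was higher by 0.32 (edgeR adjusted p = 0.0385 with the block) and lost the call without any 1 of the 6 libraries. GCLM, an enzyme of glutathione synthesis, was higher by 0.39 (edgeR adjusted p = 0.0260 with the block) and kept the call only without day 6 replicate 3.

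**Figure D2:**
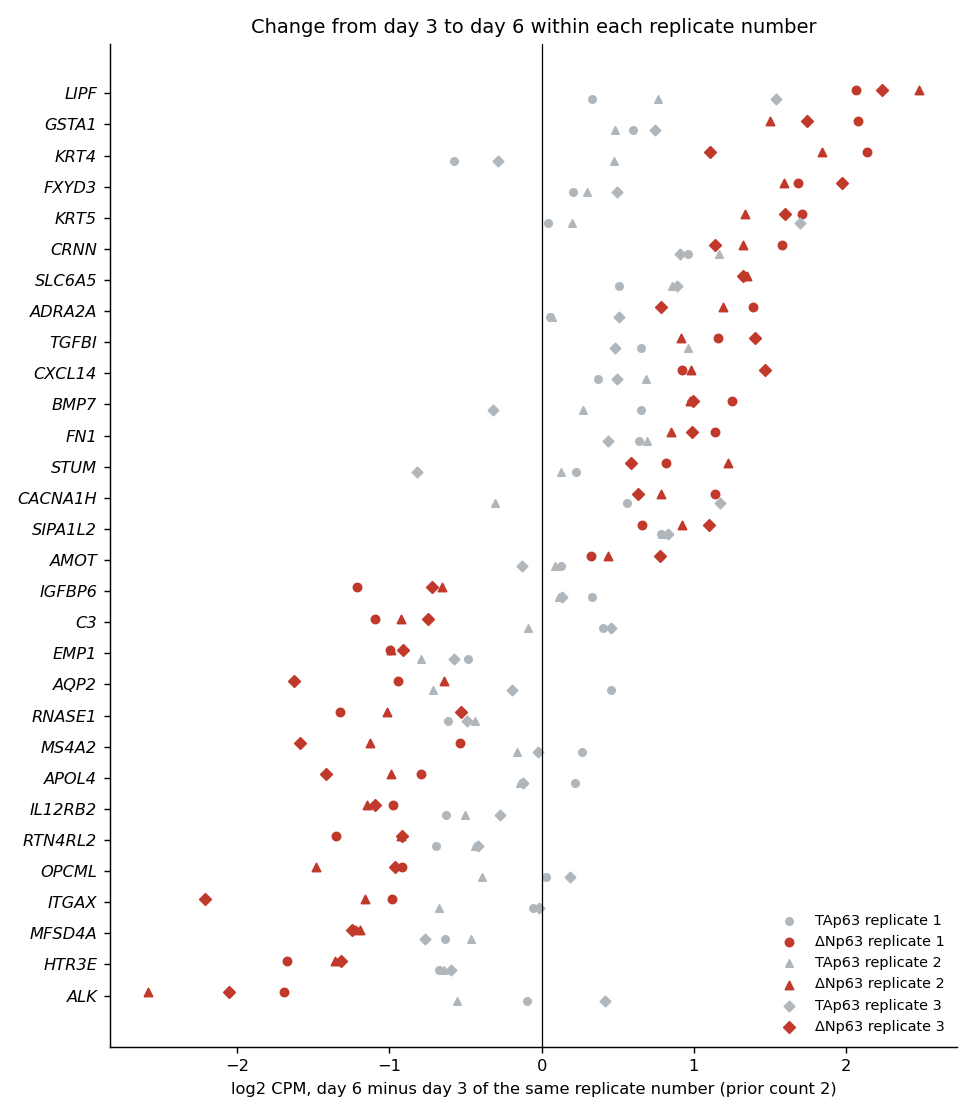
Change in log2 CPM (prior count 2) from day 3 to day 6 within each replicate number, for the genes named for the size of their change; red symbols are the ΔNp63 pairs, grey symbols the TAp63 pairs, and the vertical line is no change. The 3 red symbols of a gene lie on one side of 0 for each gene, and the grey symbols lie mostly nearer to 0. The genes were chosen as called in the ΔNp63 line without overlap between its groups, which fixes the first and favours the second.

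ALK, HTR3E, OPCML and APOL4 were the 4 genes called lower without the block. ALK, a receptor tyrosine kinase of the nervous system (chromosome 2, 29192774 to 29921586), had 6.35, 6.75 and 8.33 CPM at day 3 and 1.87, 1.01 and 1.90 CPM at day 6. Every day 6 library was more than 3-fold below every day 3 library. The log2 change was -2.20 ± 0.30 (SE; edgeR adjusted p = 0.00158, and 3.51e-06 with the block). It was the 1 call among 37 receptor tyrosine kinases and ligands, and LOC105374389 overlaps it. HTR3E, a subunit of the serotonin-gated channel (chromosome 3, 184097064 to 184106995, with HTR3E-AS1 on the other strand), had 67.8, 67.6 and 67.9 CPM at day 3 and 21.1, 26.3 and 27.2 CPM at day 6. The day 3 libraries were within 1 CPM of each other and far above all day 6 libraries. In edgeR the log2 change was -1.45 ± 0.15 (adjusted p = 7.20e-05, and 7.06e-09 with the block). OPCML, a GPI-anchored cell adhesion molecule (chromosome 11, 132414665 to 133532501), had 15.8, 22.6 and 26.7 CPM at day 3 and 8.26, 7.98 and 13.6 CPM at day 6, with replicate 3 highest at both times. OPCML had a log2 change of -1.16 ± 0.21 (SE; edgeR adjusted p = 0.0236, and 4.73e-05 with the block). APOL4, an apolipoprotein L (chromosome 22, 36189128 to 36204833), had 30.3, 29.5 and 37.8 CPM at day 3 and 17.5, 14.8 and 14.1 CPM at day 6, without overlap. The log2 change was -1.07 ± 0.17 (SE; edgeR adjusted p = 0.00978, and 5.10e-04 with the block). The other 4 tested apolipoprotein L genes were not called.

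The promoters of KRT5, the basal gene called higher, and of HTR3E, the gene called lower with the smallest adjusted p, are shown because these 2 of the 12 called genes with a promoter in the table held a p53-family half-site, the decamer that p53 and p63 can bind. Each run is the 250 bases before the RefSeq start (GRCh38.p14), read 5′ to 3′ on the gene's strand, and capitals mark the half-site; KRT5 lies on the minus strand and HTR3E on the plus strand, where the start used lies inside the annotated gene span.
KRT5, chr12:52520395-52520644: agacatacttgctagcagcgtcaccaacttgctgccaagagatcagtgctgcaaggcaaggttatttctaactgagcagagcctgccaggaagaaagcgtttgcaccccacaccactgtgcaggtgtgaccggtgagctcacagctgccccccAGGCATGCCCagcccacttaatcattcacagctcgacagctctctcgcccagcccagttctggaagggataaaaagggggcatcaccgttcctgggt
HTR3E, chr3:184099929-184100178: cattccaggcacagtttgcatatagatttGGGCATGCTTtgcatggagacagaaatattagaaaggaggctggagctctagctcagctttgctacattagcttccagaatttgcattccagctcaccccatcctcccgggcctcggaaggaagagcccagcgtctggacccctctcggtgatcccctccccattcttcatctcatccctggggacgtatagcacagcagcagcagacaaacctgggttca
The half-site started 97 bases before the start of KRT5 and 221 bases before that of HTR3E. Searched on both strands by its consensus name, it was found in 16.7% of the promoters of called genes (2 of 12), in 4.63% of 11911 promoters of tested genes, and in 5.13% and 3.06% of those of the genes higher and lower with the block. CATG, a form of the half-site's core CWWG (W for A or T), reads the same on both strands. It was in 37.9% of promoters of tested genes and in 30.8% and 41.8% of the higher and lower ones. The AP-1 motif TGANTCA, on either strand, was in 4.32%, 7.69% and 11.2% of them. A match describes the letters only.

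Immune-type receptors and secreted proteins were among the longer list of falls called with the block. IL12RB2, a chain of the interleukin 12 receptor, had 17.96, 19.6 and 29.8 CPM at day 3 and 9.04, 8.77 and 13.9 CPM at day 6, and each pair fell. edgeR put the log2 change of IL12RB2 at -1.07 ± 0.18 (adjusted p = 0.00122 with the block, 0.669 without it). ITGAX, an integrin of dendritic cells, had 8.62, 8.71 and 7.83 CPM at day 3 and 4.29, 3.81 and 1.58 CPM at day 6, without overlap. Its log2 change was -1.24 ± 0.24 (edgeR adjusted p = 0.00549 with the block and 0.0914 without it). FYB1, an adaptor protein of T cells kept here in the tuft cell list, had 105, 135 and 161 CPM at day 3 and 66.3, 75.3 and 77.4 CPM at day 6, also without overlap. edgeR gave FYB1 a log2 change of -0.85 ± 0.10 (adjusted p = 1.79e-05 with the block, 0.0906 without it). CCL28, a mucosal chemokine, had 32.5, 44.04 and 54.4 CPM at day 3 and 18.3, 25.4 and 35.9 CPM at day 6, with overlap between the groups but a fall in each pair. This gave a log2 change of -0.74 ± 0.12 (edgeR adjusted p = 9.65e-04 with the block and 0.571 without it). These 4 kept the call without each of the 6 libraries in turn. MS4A2, a chain of the IgE receptor, was lower (-1.04, adjusted p = 0.00431 in edgeR with the block) and lost the call without day 6 replicate 3. CD4 (-0.70, adjusted p = 0.0212 in edgeR with the block) kept the call only without day 3 replicate 1 or day 6 replicate 1, and the complement gene C3 (-0.98, adjusted p = 0.0283) and the TNF receptor TNFRSF1B (-1.01, adjusted p = 0.0268) lost the call without any 1 of the 6 libraries. The 14 immune cell markers summed to 676, 796 and 892 CPM at day 3 and 542, 651 and 696 CPM at day 6, most of it LYZ, lysozyme, at 733 and 573 CPM on average. None of the 14 was at 0 in all 6 libraries, PTPRC, the pan-leukocyte marker, had 1.69 to 2.99 CPM at day 3 and 0.790 to 1.94 at day 6, and CD3E, of T cells, had 4 and 2 counts. CD4 was the 1 call among the 8 tested with the block, and the part of such cells in these falls was not tested. Of 37 tested chemokines, cytokines and receptors, 2 were higher and 2 lower with the block, and the list's median was -0.06.

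Among the other falls, CA12, a carbonic anhydrase, fell with the block, with 2.08, 2.23 and 1.503 CPM at day 3 and 0.623, 0.719 and 0.474 CPM at day 6. In edgeR CA12 changed by -1.66 ± 0.31 in log2 (adjusted p = 0.00475 with the block, 0.0946 without it). This rests on 34, 40 and 24 counts at day 3 and 8, 10 and 3 counts at day 6. CA12 lost the call without day 6 replicate 2. RNASE1, a secreted ribonuclease, had 30.7, 23.7 and 20.8 CPM at day 3 and 12.2, 11.6 and 14.4 CPM at day 6, without overlap. For RNASE1 the log2 change was -1.01 ± 0.19 (edgeR adjusted p = 0.00503 with the block, 0.300 without it). RNASE1 lost the call without day 6 replicate 2. STRA6, the receptor for retinol-binding protein, was the 1 call among 18 retinoid genes, with 29.3, 28.9 and 29.3 CPM at day 3 and 22.3, 22.2 and 19.3 CPM at day 6. edgeR put the log2 change of STRA6 at -0.45 ± 0.12 (adjusted p = 0.0443 with the block, 0.346 without it). STRA6 lost the call without any 1 of the 6 libraries. IGFBP6, a binding protein of insulin-like growth factor 2, was lower (-0.90, adjusted p = 0.0245 in edgeR with the block) and kept the call only without day 3 replicate 2; the water channel gene AQP2 (-0.998, adjusted p = 0.0328) and the adipokine gene AZGP1 (-0.47, adjusted p = 0.0462) lost the call without any 1 of the 6 libraries. CD70, a TNF family ligand, was lower (-0.41, adjusted p = 0.0265 in edgeR with the block) and kept the call only without day 3 replicate 2 or day 6 replicate 1; AGMO, which cleaves ether lipids, was lower (-0.63, adjusted p = 0.0422) and kept the call only without day 6 replicate 1. Of the 138 lower calls with the block 20 were unnamed loci, antisense genes or long noncoding RNAs by their symbols, against 2 of the 101 higher calls. The share of such symbols among all genes tested was not counted, so an excess cannot be read from this.

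Some of the falls followed an early rise. The step from day 0 to day 1 shares no library with the step from day 3 to day 6, and day 1 had 2 libraries after replicate 3 was left out. With the block edgeR called 134 genes at the early step (0.849%), 87 of them higher (0.551%) and 47 lower (0.298%). Without it 29 were called (0.184%), 27 higher (0.171%) and 2 lower (0.0127%). Called at both steps with the block were 21 genes: 18 rose and then fell, 2 fell and then rose, and 1 rose both times. The 18 were 20.7% of the early rises and 13.04% of the late falls; 16 of them had no overlap between day 3 and day 6. Without the block the genes called at both steps were ALK and HTR3E, up and then down. At day 6 the mean of 15 of the 18 was still above day 0: the median ratio to day 0 was 2.88 at day 3 and 1.68 at day 6. In the TAp63 line 15 of the 18 also had a lower estimate at day 6 than at day 3 with the block, as had 8447 of the 15783 genes tested. An early rise in that line was not tested.

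Mean levels at days 0, 1, 3 and 6 were 0.265, 2.89, 7.15 and 1.59 CPM for ALK and 18.7, 35.1, 67.8 and 24.9 CPM for HTR3E. MFSD4A, a member of the major facilitator transporters that overlaps MFSD4A-AS1, had means of 7.21, 27.6, 36.9 and 15.7 CPM. Its day 3 and day 6 libraries did not overlap, with 31.7, 37.01 and 42.1 CPM at day 3 and 13.4, 16.1 and 17.7 CPM at day 6. Its log2 change was -1.25 ± 0.17 (edgeR adjusted p = 1.12e-04 with the block and 0.177 without it). DUSP6, a phosphatase that dampens ERK signalling and is itself an ERK target, peaked earlier, with means of 25.7, 43.6, 34.7 and 19.8 CPM. It had 32.6, 32.7 and 38.8 CPM at day 3 and 14.96, 21.3 and 23.2 CPM at day 6, without overlap. edgeR gave DUSP6 a log2 change of -0.84 ± 0.14 (adjusted p = 8.55e-04 with the block, 0.186 without it). It was the 1 call among 44 immediate early and heat shock genes. MFSD4A, DUSP6 and the nuclear receptor gene NR6A1 (-0.56, adjusted p = 0.00412 in edgeR with the block) kept the call without each of the 6 libraries in turn. RTN4RL2, a relative of the Nogo receptor, was lower by -1.11, adjusted p = 0.00596 (edgeR, block) and lost the call without day 6 replicate 2. SCEL, sciellin, a cornified envelope protein, had 1.59, 2.57 and 3.38 CPM at day 3 and 1.32, 0.719 and 0.790 CPM at day 6. This gave a log2 change of -1.32 ± 0.30 (edgeR adjusted p = 0.0251 with the block and 0.199 without it). SCEL kept the call only without day 3 replicate 1 or day 6 replicate 1. CALHM3, a channel subunit of taste cells, had 1.83, 1.34 and 1.57 CPM at day 3 and 0.623, 0.216 and 0.316 CPM at day 6. In edgeR CALHM3 changed by -1.99 ± 0.45 in log2 (adjusted p = 0.0224 with the block, 0.189 without it). All its day 6 libraries were under 1 CPM. CALHM3 kept the call only without day 3 replicate 2 or day 6 replicate 1. HRH1, a histamine receptor, was lower (-0.72, adjusted p = 0.0445 in edgeR with the block) and kept the call only without day 6 replicate 1. IL23R, a receptor chain that had also climbed by day 1, had 22.3, 28.1 and 38.9 CPM at day 3 and 10.1, 12.01 and 16.4 CPM at day 6, without overlap, but missed the threshold (edgeR adjusted p = 0.596, and 0.0541 with the block).

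**Figure D3:**
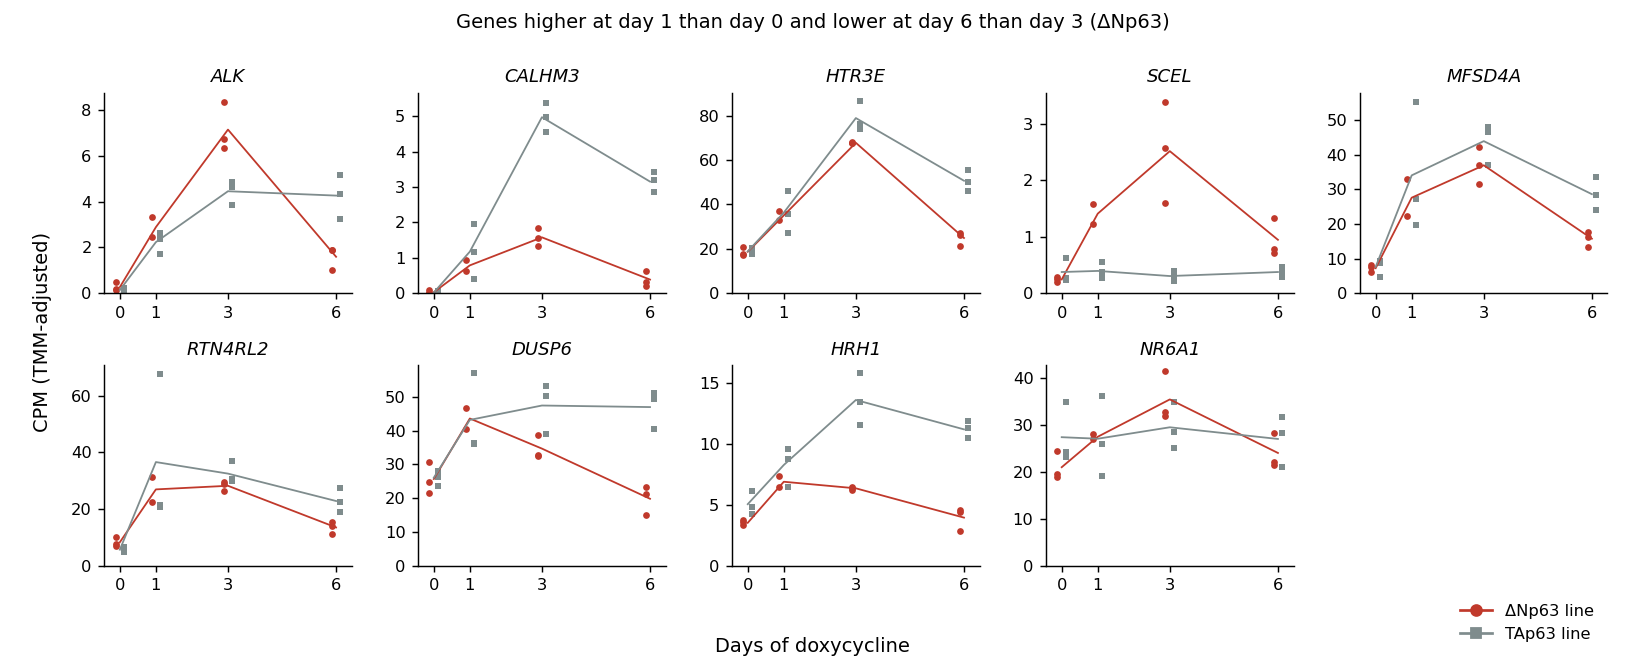
Levels in CPM (linear vertical axes from 0) against days of doxycycline for 9 genes that were higher at day 1 than day 0 and lower at day 6 than day 3 in the ΔNp63 line with the replicate block; points are libraries and lines join group means, circles for ΔNp63 and squares for TAp63. HTR3E reached 67.8 CPM on average at day 3 and 24.9 CPM at day 6.

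Many cell cycle genes had slightly higher estimates at day 6. Of 39 tested G1/S and DNA replication genes 26 were higher and 2 lower in all 3 pairs, where 21.7% and 18% of all genes were, and the median log2 change was 0.19 beside 0.01. With the block 2 were called. MCM5, a helicase subunit, had 379, 265 and 229 CPM at day 3 and 421, 348 and 304 CPM at day 6. For MCM5 the log2 change was 0.31 ± 0.08 (edgeR adjusted p = 0.0390 with the block, 0.952 without it). SLBP, which binds histone mRNA, had 97.5, 106 and 97.7 CPM at day 3 and 113, 129 and 120.2 CPM at day 6. edgeR put the log2 change of SLBP at 0.26 ± 0.07 (adjusted p = 0.0441 with the block, 0.548 without it). Neither was called without the block, and the MCM5 groups overlapped. Of 39 G2/M and mitosis genes 17 were higher and 0 lower in all 3 pairs, with a median of 0.15. CCNB1, cyclin B1, had 131, 145 and 128 CPM at day 3 and 140.4, 185 and 162 CPM at day 6. PLK1, a mitotic kinase whose gene overlaps ERN2, had 183, 142 and 122 CPM at day 3 and 197, 183 and 159 CPM at day 6. Both were called with the block (edgeR adjusted p = 0.0474 and 0.0490). MCM5 kept the call only without day 3 replicate 1, SLBP and CCNB1 kept the call only without day 6 replicate 1, and PLK1 kept the call only without day 3 replicate 1 or day 6 replicate 1. In the TAp63 line the medians of the same lists were -0.08 and -0.01. Outside the gene lists, the block also called higher the purine synthesis enzyme gene PAICS (0.32, adjusted p = 0.0195 in edgeR) and the folate enzyme gene MTHFD1, which overlaps ZBTB25 (0.31, adjusted p = 0.0296); both kept the call only without day 3 replicate 1 or day 6 replicate 1. EIF4G2, a translation initiation factor (0.29, adjusted p = 0.0333 in edgeR with the block), kept the call only without day 6 replicate 1.

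Several other lists had more members higher than lower in all 3 pairs, beside 21.7% higher and 18% lower over all genes tested. Of 37 hypoxia and glycolysis genes 19 were higher and 1 lower in all 3 pairs (median log2 change 0.15), and the calls with the block were LOX, higher, and CA12, lower. Of 34 sterol and fatty acid synthesis genes 15 were higher and 0 lower in all pairs (0.10), and of 37 ATF4 and amino acid stress genes 12 and 0 (0.14); neither list had a call. In the TAp63 line the ATF4 list had a median of 0.13. Of 32 NRF2 and antioxidant genes 16 were higher and 3 lower in all pairs (0.13), with GSTA1 and GCLM called. Of 33 p53 family targets none was called: 4 were higher and 6 lower in all pairs, and CDKN1A, the cell cycle inhibitor p21, had 9.78, 12.2 and 9.52 CPM at day 3 and 9.43, 11.4 and 9.48 CPM at day 6. Nor was any called of 28 Notch pathway, 29 interferon response, 13 PRC2 or 25 HOX genes; EZH2 had 171, 161 and 159 CPM at day 3 and 186, 164 and 156 CPM at day 6. Among 24 tuft cell genes AVIL, advillin, was called higher with the block and FYB1 lower. AVIL, which TSFM overlaps, had 12.6, 14.8 and 13.8 CPM at day 3 and 20.96, 24.3 and 18.01 CPM at day 6. Its log2 change was 0.64 ± 0.14 (edgeR adjusted p = 0.0176 with the block and 0.326 without it). AVIL lost the call without day 6 replicate 1, day 3 replicate 2 or day 6 replicate 2. The kinase gene BMX had 20.8, 24.2 and 22.9 CPM at day 3 and 22.7, 23.5 and 16.4 CPM at day 6, with overlapping groups. Of 24 neuroendocrine genes 2 were called higher with the block, and the list's median was -0.08. UCHL1, a neuronal ubiquitin hydrolase among the called, had 112, 96.8 and 78.5 CPM at day 3 and 126, 121 and 105 CPM at day 6. edgeR gave UCHL1 a log2 change of 0.30 ± 0.07 (adjusted p = 0.0245 with the block, 0.807 without it). UCHL1 kept the call only without day 3 replicate 1 or day 6 replicate 1.

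**Figure D4:**
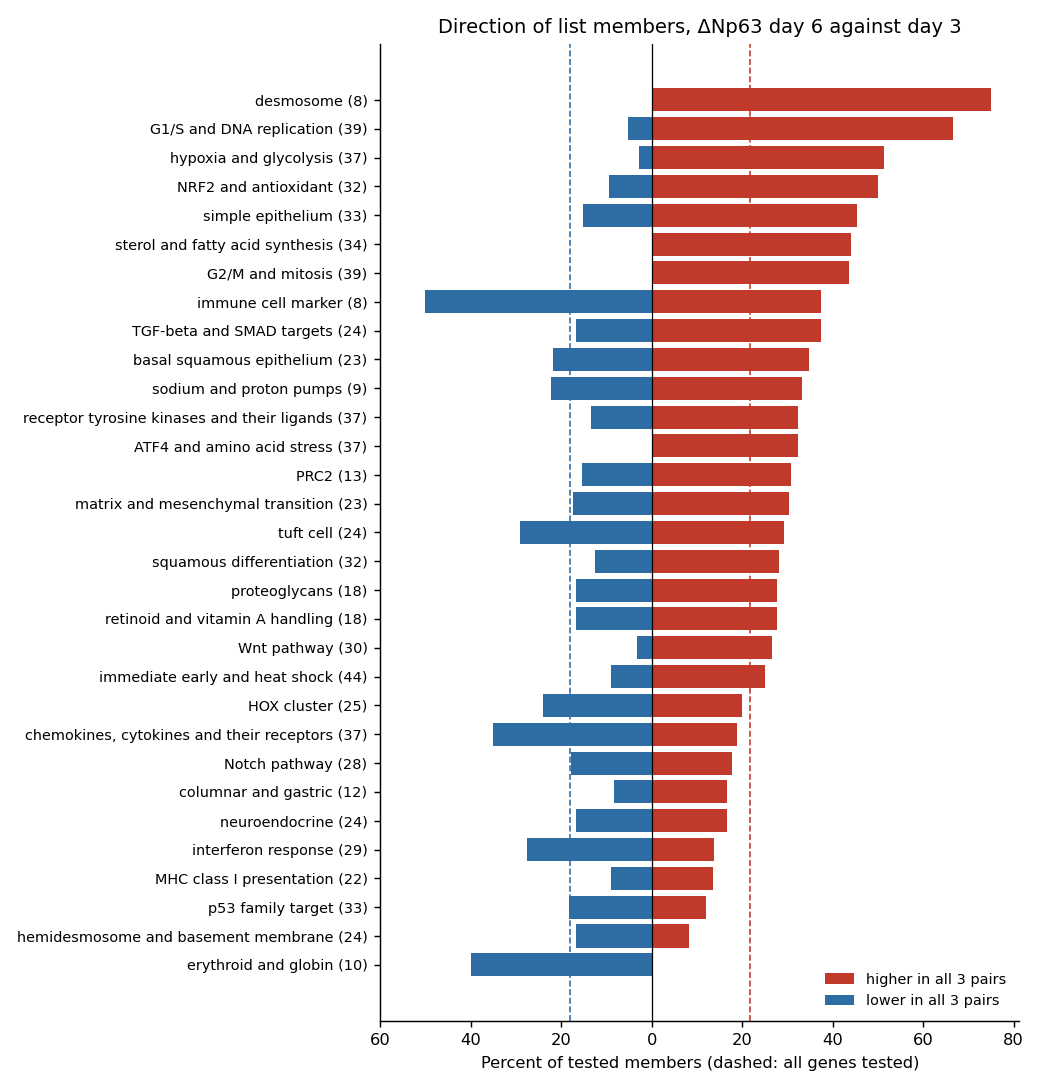
Percent of the tested members of each gene list (number in brackets) that were higher (right, red) or lower (left, blue) at day 6 than at day 3 in all 3 ΔNp63 pairs; dashed lines are the same percentages over all genes tested, 21.7 and 18. The G1/S list (26 of 39 higher) and the desmosome list (6 of 8) reach far beyond the dashed line, and the erythroid list has no bar to the right.

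The same step in the TAp63 line moved fewer genes past the threshold. Without the block edgeR called 0 genes there, with 273 at an unadjusted p under 0.05; with the block it called 5 (0.0317%), 4 higher (0.0253%) and 1 lower (0.00634%). Of these, HTR3E and FN1 were also called in the ΔNp63 line, in the same direction. HTR3E had 73.95, 86.7 and 76.03 CPM at day 3 and 46.2, 55.5 and 50.3 CPM at day 6 with TAp63, a log2 change of -0.64 ± 0.10 (edgeR adjusted p = 0.00829 with the block). FN1 had 51.4, 41.5 and 40.2 CPM at day 3 and 80.1, 67.1 and 54.4 CPM at day 6 there, a log2 change of 0.60 ± 0.11 (edgeR adjusted p = 0.0170 with the block). The 3 others were SPRR3, the glypican gene GPC4 and the heparan sulfate sulfotransferase gene HS6ST3. Of the 101 genes higher with ΔNp63, 71 had a higher TAp63 estimate and 31 were higher in all 3 TAp63 pairs; of the 138 lower, 91 were lower and 35 in all pairs. Over all genes tested, 7336 were higher and 8447 lower in the TAp63 line, 1989 and 2245 of them in all pairs. The median TAp63 change was 0.07 for the 101 and -0.06 for the 138, against 0.43 and -0.69 in the ΔNp63 line, where the genes were chosen. The induced gene also differed in level: TP63 had means of 558 and 655 CPM at days 3 and 6 in the TAp63 line, and 865 and 926 CPM in the ΔNp63 line. Isoform and TP63 level therefore cannot be told apart between the lines.

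The difference between the lines was tested directly as ΔNp63 minus TAp63. Without the block 0 genes were called and 540 had an unadjusted p under 0.05 (edgeR); with the block 4 were called (0.0253%), all lower in ΔNp63. ALK had 4.65, 4.85 and 3.85 CPM at day 3 and 4.35, 3.25 and 5.18 CPM at day 6 in the TAp63 line. The lines differed by -2.05 ± 0.33 in its log2 change (edgeR adjusted p = 0.0201 with the block, 0.637 without it). GPC4 had 3.42, 3.91 and 3.88 CPM at day 3 and 3.12, 2.37 and 3.16 CPM at day 6 in the ΔNp63 line, where it was not called, and 6.52, 7.98 and 8.22 CPM at day 3 and 19.3, 21.8 and 18.2 CPM at day 6 in the TAp63 line. This is a difference of -1.79 ± 0.30 (adjusted p = 0.0201 with the block in edgeR, 1 without it). CSRP2, a LIM domain protein, fell in the ΔNp63 line (50.96, 43.9 and 47.4 CPM at day 3 and 38.5, 32.8 and 30.2 CPM at day 6) and had 70.7, 57.7 and 53.6 CPM at day 3 and 74.1, 73.6 and 65.4 CPM at day 6 in the TAp63 line. The difference was -0.72 ± 0.13 (adjusted p = 0.0278 with the block in edgeR, 1 without it). HTR3E differed by -0.83 ± 0.15 (adjusted p = 0.0426 with the block in edgeR, 1 without it). For the rises the difference did not pass. It was 1.14 ± 0.49 for KRT5 and 1.42 ± 0.32 for FXYD3 (edgeR adjusted p = 0.438 and 0.171 with the block). It was 0.38 ± 0.22 for TGFBI and 1.34 ± 0.70 for LIPF (edgeR adjusted p = 0.577 and 0.516). In the TAp63 line KRT5 had 0.621, 0.635 and 0.128 CPM at day 3 and 0.642, 0.751 and 0.741 CPM at day 6. FXYD3 had 1.03, 1.91 and 1.67 CPM at day 3 and 1.21, 2.38 and 2.41 CPM at day 6 there. For OPCML the difference was -1.07 ± 0.21 (edgeR adjusted p = 0.0621 with the block).

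**Figure D5:**
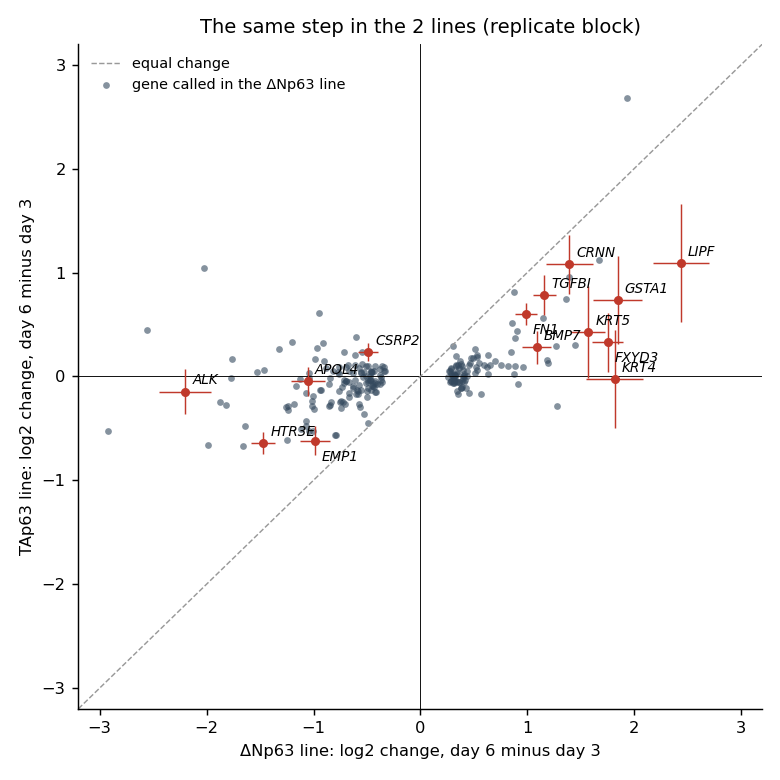
Log2 change from day 3 to day 6 in the ΔNp63 line (horizontal) and in the TAp63 line (vertical) for the 239 genes called in the ΔNp63 line with the replicate block; named genes are red with SE bars and the dashed line is equal change. Most points lie nearer to 0 vertically than horizontally, which the choice of genes on the horizontal axis favours, and FN1 and HTR3E were called in both lines.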

How the data were processed

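RNA was sequenced from TYUC-1 cells; 6 of the 24 libraries entered the comparison and 23 the fit. TRIzol extraction and NEBNext Ultra kits were used, per the labels' protocols. Alignment to hg38 used HISAT2 2.1.0 and counting featureCounts 1.6.1, per the submitters' processing notes, in which DESeq2 appears too. Per the file headers, the authors' deposited counts came from featureCounts 2.0.0 on the UCSC refGene annotation over whole transcript spans, introns included, without strand or options for multi-mapping or overlapping fragments. A fragment in 2 overlapping genes was therefore counted for neither, and values are uncertain where a gene overlaps another, as with ALK, HTR3E, BMP7, MFSD4A, SCEL, AVIL, KRT7, PLK1, MTHFD1, CACNA1H (TPSG1) and POU2F3.

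For 28278 genes, the raw counts went into edgeR 4.0.16 under R 4.3.3 (filterByExpr, TMM, glmQLFit, glmQLFTest; a mean per line and day, 15 residual degrees of freedom) on 15783 genes, with Benjamini-Hochberg adjustment over them and calls at an adjusted p under 0.05. SE is the absolute log2 change over the root of the quasi-likelihood F. The scripts were tested on simulated data. No replicates agreed within sampling noise (lowest chi-square per degree of freedom 6.25). The pairing by replicate number rests on the data: deviations of same-numbered day 3 and day 6 libraries correlated at r = 0.643, 0.375 and 0.430 across genes, and all 77 same-numbered pairs of the series at 0.162 to 0.680. The replicate block was therefore printed beside results, and DESeq2 1.42.0, RLE scaling, other filters, other sets of libraries and leaving out each library were alternatives.

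The comparison, the 35 gene lists, the omission of day 1 replicate 3 and the rule for named genes were chosen with earlier results of these data known. The rule names the 15 largest rises and falls among called genes with at least 5 CPM and no overlap, called list members, a fixed panel of genes, the 5 rises and 5 falls at the highest CPM, up to 10 genes called with opposite signs at days 1 and 6, and up to 10 interaction genes; it was applied also to the block after seeing the data. LYZ, HS6ST3 and the markers were named beyond it, and a few genes that it names are not reported here. Promoters are RefSeq's (GRCh38.p14).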

Additional observations from a re-analysis of the deposited data

Results flagged for a closer look

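In 4 genes the change from day 3 to day 6 differed between the lines by the test of the difference with the replicate block (ΔNp63 minus TAp63, log2 scale): ALK by -2.05, GPC4 by -1.79, HTR3E by -0.83 and CSRP2 by -0.72 (edgeR adjusted p = 0.0201, 0.0201, 0.0426 and 0.0278). None of the 4 passed without the block (adjusted p = 0.637 for ALK and 1 for the others).

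In SCEL and IGFBP6 all 3 ΔNp63 pairs fell and all 3 TAp63 pairs rose. The difference was -1.66 for SCEL (edgeR adjusted p = 1, and 0.414 with the block) and -1.05 for IGFBP6 (1 and 0.242), so neither passed the test. SCEL had 0.207, 0.318 and 0.385 CPM at day 3 and 0.285, 0.375 and 0.463 CPM at day 6 in the TAp63 line and IGFBP6 had 2.59, 5.53 and 5.65 CPM at day 3 and 3.28, 6.01 and 6.20 CPM at day 6. At such levels the rise of SCEL in the TAp63 pairs is beyond what this depth can compare.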

How the results depend on the processing

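Without the replicate block, 10 genes were higher and 4 lower at day 6 than at day 3 of ΔNp63. With all 24 libraries 1 and 1 were called, with DESeq2 21 and 11, and without 1 of the 6 libraries 4 to 8 higher and 2 to 6 lower. RLE scaling, no filter, a mean of at least 1 CPM, the 6 libraries alone and the ΔNp63 line alone gave 8 to 12 higher and 4 to 6 lower, and the 6 libraries alone kept 9 of the 14. With the replicate block 101 and 138 were called. The block gave 200 and 508 with the 6 libraries alone, 230 and 165 with DESeq2, 8 and 4 with all 24 libraries, and, without 1 library, 30 to 102 higher (72, 102, 32, 37, 33 and 30 without day 3 and day 6 replicates 1, 2 and 3 in turn) and 23 to 156 lower (81, 156, 40, 23, 66 and 38); the settings that combine the block with all 24 libraries, DESeq2 or a library left out were chosen after seeing the data. In the TAp63 line the block gave 5 calls where there were 0, and for the difference between the lines 4 where there were 0. The day 1 step had 29 calls, 15 with all 24 libraries and 134 with the block. The cause of these shifts was not tested. All 14 kept their sign under each setting; DESeq2 without the block called all 14. Of the values of named genes under the alternatives, 1672 kept their side of the threshold, 355 passed it newly, 61 lost it and none of those called reversed. Of the 57 named genes called only with the block, 13 kept the call without each library in turn, 44 lost it without 1 or more and 8 without any 1. Genes under about 1 CPM, such as KRT14, are beyond what this depth can compare. The changes of TNFRSF19, CA12, CALHM3 and SCEL, which were on average under that level at day 3 or day 6, rest on few counts.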

Other observations

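The genes called with the block differed in kind between the directions. Of the higher calls 98% with a known class were protein-coding, against 82.8% of the lower calls and 88.4% of all genes tested. The median level at day 3 was 46.3 CPM for the higher and 16.7 CPM for the lower calls, beside 24.8 CPM over all genes tested, and the median gene span was 19511, 34804 and 30392 bases. The counts include introns, so a change in unspliced RNA would enter them.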
